A study of Mus musculus with 2 samples.

Results

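Kit, Etv1, Foxa2 and Tmem45b were described across single taste cells of α-gustducin-GFP mice, alone and beside the sweet and umami receptor genes Tas1r1, Tas1r2 and Tas1r3. The 4 genes were chosen by their levels and by their co-detection with the Tas1r genes in these barcodes, out of 21888 genes listed in at least 1 of the 2 count tables. Their levels and co-detection are therefore given as descriptions, with no test. The fungiform (FP) library held 29 cell barcodes from the anterior tongue, and the circumvallate (CV) library held 61 from the posterior tongue. Both came from adult α-gustducin-GFP mice on a C57BL/6J background, with no treatment named in the labels, and held GFP-positive singlets that excluded the dead-cell dye 7-AAD. α-Gustducin, encoded by Gnat3, is a G protein subunit of taste cells, and the labels name no cell population other than the GFP-positive one. There was 1 library per papilla, and the sources used here do not give the number of animals behind each. Papilla and library therefore cannot be told apart, no replicate check was possible, and no p-value is given.

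Type II taste cells detect sweet, umami or bitter compounds through G protein-coupled receptors and then signal through Plcb2, Itpr3 and the channel Trpm5. Tas1r1 pairs with Tas1r3 in the umami receptor and Tas1r2 pairs with Tas1r3 in the sweet receptor, while Tas2r genes encode bitter receptors. Kit encodes the receptor tyrosine kinase for stem cell factor, best known from mast cells, melanocytes, germ cells and the pacemaker cells of the gut. Etv1 encodes an ETS-family transcription factor, known to act with KIT signalling in those pacemaker cells. Foxa2 encodes a forkhead transcription factor of endoderm-derived epithelia, and Tmem45b encodes a multi-pass membrane protein of the TMEM45 family.

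The counts were whole numbers per gene and barcode. They summed to 34817208 in FP, with 193718 to 4078945 per barcode, and to 37575002 in CV, with 32726 to 4088415 per barcode. The median barcode had counts for 6177 genes in FP and 920 in CV, and mitochondrial RNA took a median of 10.9% of counts in FP and 33.5% in CV. A gene was called on in a barcode at 50 CPM or more, where CPM is the count scaled to a barcode total of 1000000; this took 10 to 204 counts in FP barcodes and 2 to 205 in CV barcodes. Gnat3 was on in 22 of 29 FP barcodes and 33 of 61 CV barcodes, and Trpm5 was on in 19 FP and 32 CV barcodes. A stricter set had more than 500 genes and Gnat3 above 0.9 on a natural-log scale, and is called Gnat3-kept here; it held 21 FP and 32 CV barcodes. The libraries shared 0 barcodes. The sources used here do not say whether reads were collapsed to molecules, so PCR copies may be counted, and every interval below (95%) covers counting error only.

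Kit and Tmem45b were on mainly in FP barcodes, while Etv1 was on in 3 FP and 2 CV barcodes. In FP, at least 1 of Kit, Etv1 and Tmem45b was on in 16 of 29 barcodes (55.2%, exact binomial interval 35.7% to 73.6%). In CV, 3 of 61 barcodes had a member on (4.92%, 1.03% to 13.7%). Among Gnat3-kept barcodes the counts were 16 of 21 in FP and 0 of 32 in CV, and a count of 0, taken to allow up to 3 barcodes, leaves a share of up to 9.38% of the 32. These values were among those that chose the genes. Depth was higher and mitochondrial share lower in FP than in CV, and their part in the difference was not tested.

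**Figure D1:**
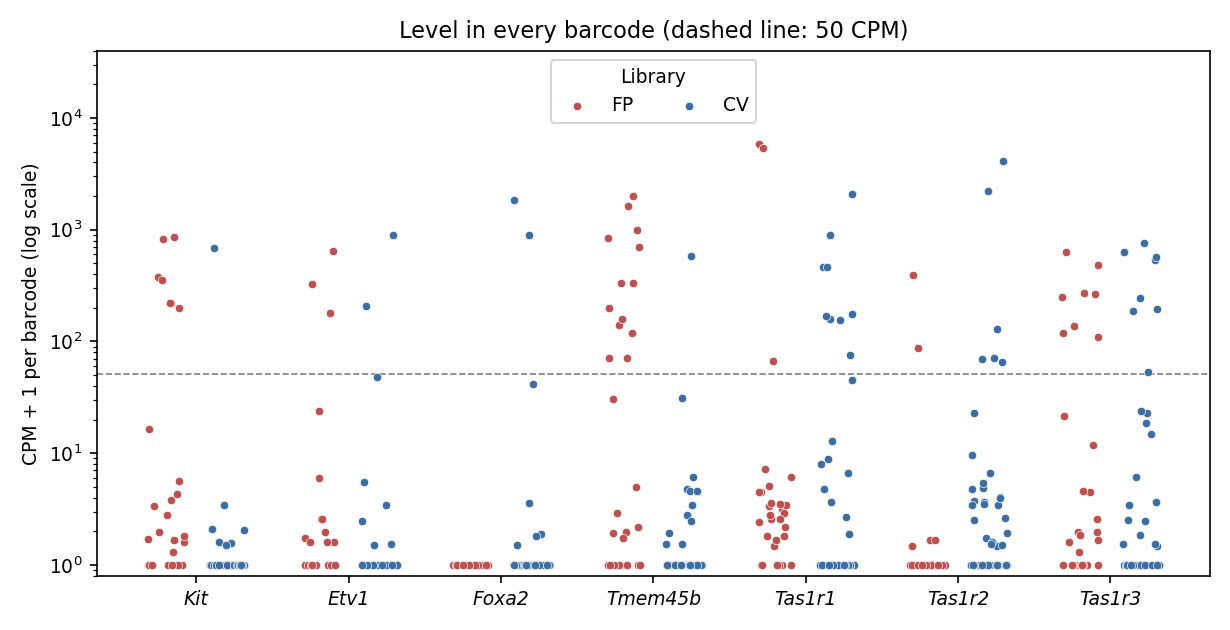
Level of each of the 4 genes and of the 3 Tas1r genes in every barcode, as CPM + 1 on a log axis, with FP barcodes to the left of CV barcodes and a dashed line at 50 CPM. Each point is a barcode; Kit lies above the line in 7 FP barcodes and 1 CV barcode, and Tmem45b in 13 FP barcodes and 1 CV barcode.

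Kit, the stem cell factor receptor gene (chr5:75574916-75656722, plus strand, mm10), was on in 7 of 29 FP barcodes (24.1%, interval 10.3% to 43.5%) and in 1 of 61 CV barcodes (1.64%, 0.0415% to 8.80%). In the 7 FP barcodes the lowest level was 197 CPM, the median 354 CPM and the highest 865 CPM. The next FP barcode had 15.5 CPM, 11 had some counts below 10 CPM and 10 had none, so the on barcodes stood apart from the rest. In CV the on barcode had 683 CPM and the next highest 2.40 CPM. Over all counts of a library the level was 104 CPM in FP (Poisson interval 100.5 to 107) and 74.7 CPM in CV (71.9 to 77.5), but 99.5% of the CV counts for Kit lay in that 1 barcode, numbered 44480. Without it the CV level was 0.388 CPM (0.207 to 0.664, 60 barcodes). The log2 ratio of FP over CV, with 10 CPM added to both, was 0.43 with barcode 44480 and 3.45 without it.

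Etv1, the ETS factor gene (chr12:38779380-38870484, plus strand, mm10), was on in 3 of 29 FP barcodes (10.3%, interval 2.19% to 27.4%) and in 2 of 61 CV barcodes (3.28%, 0.3996% to 11.3%). The 3 FP barcodes had 177, 326 and 646 CPM, and no other FP barcode had more than 22.96 CPM. The CV barcodes had 903 CPM in 44480 and 206 CPM in 455364, and the next had 46.7 CPM. The level over all counts was 38.9 CPM in FP (36.87 to 41.05) and 104 CPM in CV (100.8 to 107), a log2 ratio of -1.22. Barcode 44480 held 94.4% of the CV counts, and without it the CV level was 6.54 CPM (5.70 to 7.47) and the log2 ratio 1.56. The direction of the difference between the libraries thus rested on 1 barcode.

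Foxa2, the forkhead factor gene (chr2:148042877-148046969, minus strand, mm10), had a row in the CV table only and was taken as 0 in FP, so its CV level is given in place of a fold. It was on in 2 of 61 CV barcodes (3.28%, interval 0.3996% to 11.3%), at 888 CPM in 44480 and 1836 CPM in 627807. Another barcode had 40.6 CPM, 4 had traces below 10 CPM and 54 had none. Barcode 44480 held 88.5% of the 4102 counts because it was far deeper than 627807, where 322 counts gave the higher level. Without 44480 the CV level was 14.04 CPM (12.8 to 15.4), against 109 CPM (106 to 113) with it.

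Tmem45b, the membrane protein gene (chr9:31426196-31464462, minus strand, mm10), was on in 13 of 29 FP barcodes (44.8%, interval 26.4% to 64.3%) and in 1 of 61 CV barcodes (1.64%, 0.0415% to 8.80%). In the 13 FP barcodes its lowest level was 70.1 CPM, its median 332 CPM and its highest 1991 CPM, while the barcode just below the threshold had 29.3 CPM. In CV it had 587 CPM in 44480 and 30.5 CPM in the next barcode. The level over all counts was 245 CPM in FP (240 to 250) and 67.1 CPM in CV (64.5 to 69.8), a log2 ratio of 1.72. Without barcode 44480, which held 95.1% of the CV counts, the CV level was 3.70 CPM (3.08 to 4.42) and the log2 ratio 4.22. Tmem45b was the member spread most evenly over the barcodes, since the FP barcode with the most counts held 21.4% of them, against 31.4% for Kit and 54.4% for Etv1.

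The values near the 50 CPM threshold left few barcodes in doubt. In FP, Kit had 197 CPM in the lowest on barcode and 15.5 CPM in the highest off barcode, Etv1 had 177 and 22.96 CPM, and Tmem45b had 70.1 and 29.3 CPM. In CV, Kit had 683 and 2.40 CPM, Etv1 206 and 46.7 CPM, Foxa2 888 and 40.6 CPM, and Tmem45b 587 and 30.5 CPM. The CV values of 46.7, 40.6 and 30.5 CPM all came from barcode 519708.

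The receptor genes gave the cells in which the 4 genes were sought. Tas1r3, the subunit common to both receptors (chr4:155859268-155863362, minus strand), was on in 8 of 29 FP barcodes and in 8 of 61 CV barcodes. Tas1r1, the umami subunit (chr4:152027914-152038568, minus strand), was on in 3 FP barcodes and 9 CV barcodes, and Tas1r2, the sweet subunit (chr4:139653538-139670280, plus strand), in 2 and 6. All 3 Tas1r1-on and both Tas1r2-on FP barcodes were also Tas1r3-on. In CV, 4 of 9 Tas1r1-on and 2 of 6 Tas1r2-on barcodes were.

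Of the 16 FP barcodes with a member on, 7 were Tas1r3-on and 9 had no Tas1r gene on. Of the 8 Tas1r3-on FP barcodes, 7 had a member on (87.5%, interval 47.3% to 99.7%), namely Kit in 5, Etv1 in 3 and Tmem45b in 6. Of the 21 Tas1r3-off FP barcodes, 9 had a member on (42.9%, 21.8% to 66.0%), namely Kit in 2, Etv1 in 0 and Tmem45b in 7. Within the Gnat3-kept FP barcodes, where the Tas1r3-off set lost its keratinocyte-rich barcodes, the counts were 7 of 8 and 9 of 13 (69.2%, 38.6% to 90.9%). Each of the 4 FP barcodes with at least 2 members on was Tas1r3-on. The genes were chosen by co-detection with the Tas1r genes, and the barcodes of the same library are not replicates. These intervals cover counting error only, so whether Tas1r3-on and Tas1r3-off barcodes differed was not tested in either set.

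The on calls of Etv1 and Tas1r1 fell in the same FP barcodes, although their levels did not rank alike there. The 3 Etv1-on barcodes, 540025, 63443 and 83863, were exactly the 3 Tas1r1-on barcodes, and each was on for Kit, Tmem45b and Tas1r3 as well. Barcode 540025 had 177 CPM of Etv1, 865 of Kit, 157 of Tmem45b, 5800 of Tas1r1, 392 of Tas1r2 and 270 of Tas1r3. Barcode 63443 had 646 CPM of Etv1, 822 of Kit, 999 of Tmem45b, 5415 of Tas1r1, 0 of Tas1r2 and 625 of Tas1r3. Barcode 83863 had 326 CPM of Etv1, 354 of Kit, 198 of Tmem45b, 65.7 of Tas1r1, 86.0 of Tas1r2 and 266 of Tas1r3. Each gene was on in all 3 apart from Tas1r2 in 63443, while Tas1r1 was far lower in 83863 than in the other two. No other FP barcode had more than 6.28 CPM of Tas1r1 or 22.96 CPM of Etv1, so the groups did not overlap for either gene. Of 9567 genes at 10 CPM or more in either of these FP groups, Tas1r1 and Etv1 were the only 2 on in these 3 barcodes and in no other (0.0209%), whereas 649 (6.78%) were on in all 3. The lowest level in these 3 barcodes lay above the highest in the other FP barcodes for 11 genes (0.115%), Tas1r1 and Etv1 among them. Tas1r1 meets both rules because its own calls define the groups, and Etv1 was chosen by co-detection with the Tas1r genes. These shares are therefore descriptions and no test of the match.

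**Figure D2:**
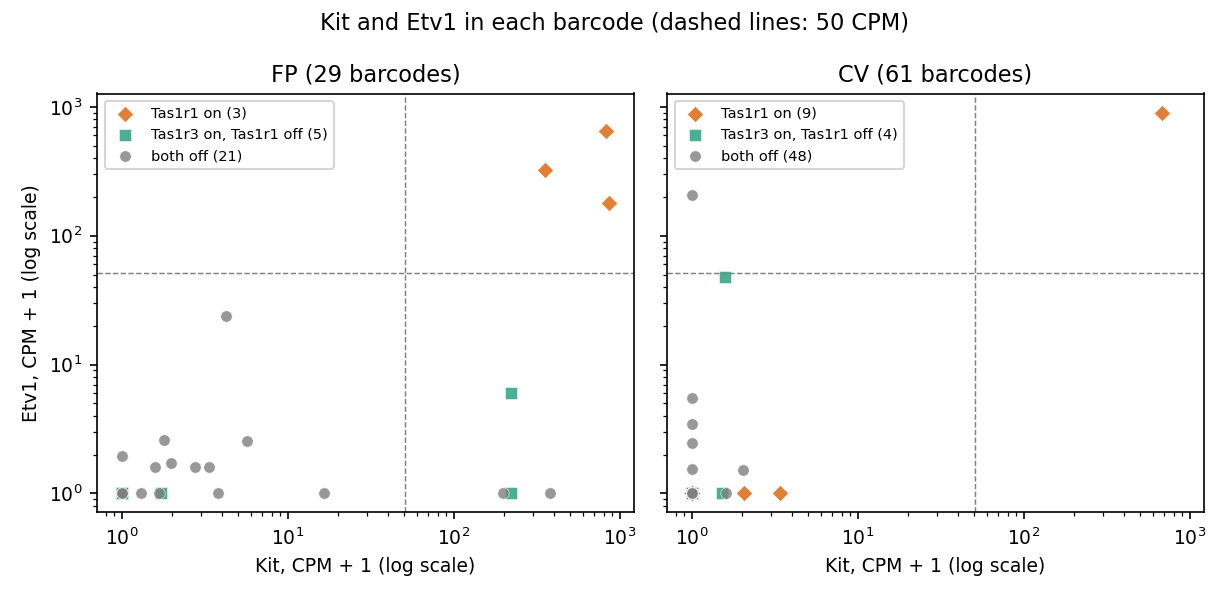
Kit on the horizontal axis and Etv1 on the vertical axis in each barcode, as CPM + 1 on log axes, for FP at left and CV at right, with dashed lines at 50 CPM. The 3 Tas1r1-on FP barcodes (diamonds) are the FP points above both lines; in CV, 1 of 9 Tas1r1-on barcodes lies there and the other 8 lie at or near the origin.

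The windows around the annotated starts of the genes that were on together are shown because Etv1 and Foxa2 encode DNA-binding factors. RefSeq windows of 250 bases before to 50 after a start (GRCm38.p6) were found for 3 of the 4 members and for all 3 Tas1r genes, and Kit, Etv1, Foxa2 and Tas1r1 are printed 5′ to 3′ in the gene's sense. Tmem45b had no entry. Capitals mark the ETS core CCGGAA or its reverse complement TTCCGG.
Kit, chr5:75574737-75575036, plus strand: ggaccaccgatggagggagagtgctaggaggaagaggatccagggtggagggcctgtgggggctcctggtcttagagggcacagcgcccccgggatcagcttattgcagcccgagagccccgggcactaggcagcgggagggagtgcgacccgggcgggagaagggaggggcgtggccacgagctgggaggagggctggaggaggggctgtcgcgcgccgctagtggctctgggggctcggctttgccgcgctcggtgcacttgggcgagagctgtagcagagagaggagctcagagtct
Etv1, chr12:38779832-38780131, plus strand: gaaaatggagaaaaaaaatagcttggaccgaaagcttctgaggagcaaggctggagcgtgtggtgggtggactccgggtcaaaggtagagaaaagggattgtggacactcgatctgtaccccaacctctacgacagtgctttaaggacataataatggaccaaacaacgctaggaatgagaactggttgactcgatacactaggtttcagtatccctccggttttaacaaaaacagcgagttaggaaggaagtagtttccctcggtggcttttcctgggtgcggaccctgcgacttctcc
Foxa2, chr2:148045899-148046198, minus strand: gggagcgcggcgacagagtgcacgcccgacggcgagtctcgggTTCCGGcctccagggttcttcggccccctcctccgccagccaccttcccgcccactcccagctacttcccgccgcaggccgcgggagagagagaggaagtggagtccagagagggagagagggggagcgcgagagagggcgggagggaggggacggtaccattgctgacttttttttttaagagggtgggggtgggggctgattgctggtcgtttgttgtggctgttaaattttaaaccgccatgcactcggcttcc
Tas1r1, chr4:152038441-152038740, minus strand: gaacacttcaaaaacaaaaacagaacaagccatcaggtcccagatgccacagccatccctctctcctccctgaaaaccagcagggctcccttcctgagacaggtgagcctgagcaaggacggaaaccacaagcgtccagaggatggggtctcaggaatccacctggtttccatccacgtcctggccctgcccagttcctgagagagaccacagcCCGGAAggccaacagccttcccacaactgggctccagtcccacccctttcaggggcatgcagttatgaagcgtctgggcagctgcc
The ETS core was found at -207 from the start in the printed Foxa2 window and at -36 in the Tas1r1 window. It was in none of the other 8 windows of these genes, which include further Foxa2, Etv1 and Kit windows that are not printed. It occurs on either strand in 14.9% of all 32851 windows. The forkhead letters TGTTTAC, found in 3.65% of all windows, and the octamer letters ATGCAAAT, found in 1.74%, were in none of the 10 windows. A match says only that the letters are there.

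Tmem45b and Kit were also on apart from the receptor genes. Tmem45b was on without any Tas1r gene in 7 FP barcodes, at 70.1 to 1991 CPM, and with Tas1r3 alone in 2, at 850 and 1636 CPM. Kit was on alone in 2 FP barcodes. Barcode 146804 had 378 CPM of Kit from 80 counts, with 1887 genes, 68.0% mitochondrial counts and Trpm5 at 9.45 CPM. Barcode 551304 had 197 CPM of Kit, 34.3% mitochondrial counts, Trpm5 at 1117 CPM and 6 bitter receptor genes on. The part of mitochondrial share in these lone calls was not tested. Kit lay with Tas1r3 alone in barcode 119474, at 220 CPM, and with Tas1r3 and Tmem45b in 789312, at 221 CPM. The 1 Tas1r3-on FP barcode with no member on, 224136, had 483 CPM of Tas1r3, at most 0.719 CPM of any member and 6 bitter receptor genes on.

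**Figure D3:**
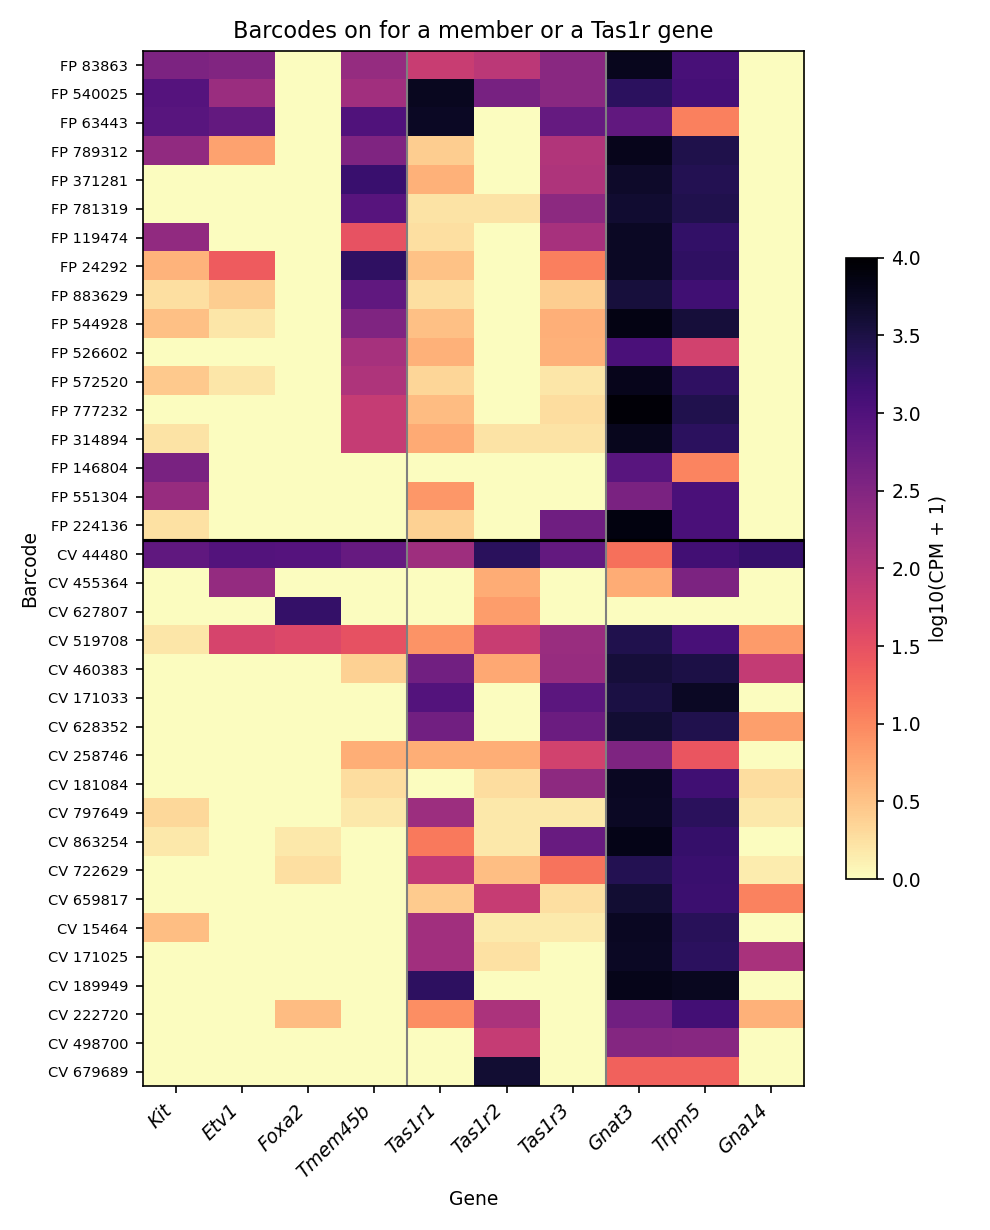
Level of the 4 genes, the 3 Tas1r genes, Gnat3, Trpm5 and Gna14 as log10(CPM + 1) in each barcode on for a member or a Tas1r gene, FP above the black line and CV below it. CV barcode 44480 is dark across the member and Tas1r columns. The 3 top FP barcodes are dark there except for Foxa2, which is at 0 in all FP barcodes, and Tas1r2 in 63443, and the remaining CV barcodes with a Tas1r gene on are pale for the members apart from 519708.

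In CV, members and Tas1r genes lay together in a single barcode. Of 17 CV barcodes with a Tas1r gene on, 1 had a member on (5.88%, interval 0.149% to 28.7%), and of 44 with none on, 2 had one (4.55%, 0.555% to 15.5%). The other 3 CV barcodes with both Tas1r1 and Tas1r3 on, the umami pair, were 171033, 460383 and 628352. They had 902, 467 and 461 CPM of Tas1r1 and 760, 192 and 535 CPM of Tas1r3, but at most 1.46 CPM of any member. Barcode 171033 held 98657 counts and 1130 genes, while 460383 and 628352 held 686924 and 1115456 counts, within the FP range. Barcode 171033 also belongs to a run of 6 CV barcodes with adjoining numbers, of which 0 had a member on.

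Barcode 44480 had all 4 members and all 3 Tas1r genes on. It had 683 CPM of Kit, 903 of Etv1, 888 of Foxa2, 587 of Tmem45b, 168 of Tas1r1, 2211 of Tas1r2 and 632 of Tas1r3. It was low in Gnat3, at 14.9 CPM, and so fell outside the Gnat3-kept set, although it had 1369 CPM of Trpm5, 2005 of Plcb2, 3917 of Gng13 and 370 of Pou2f3, the type II cell factor. Gna14, a G protein subunit gene, was at 1758 CPM, 94.1% of its CV counts. It had 4088415 counts, the most of 61 CV barcodes, ranked 3 of 61 in number of genes (9949), had 14.6% mitochondrial counts and 1 bitter receptor gene on. Its summed keratinocyte markers were 2.94 CPM and its summed type III markers 24.9 CPM. It had 3491 genes on, of which 197 were on in no other CV barcode (1.61% of 12212 genes on in any CV barcode). Doublets were not called on 90 barcodes, and whether 44480 held 1 cell was not tested.

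The second CV barcode with several members above 10 CPM, 519708, lay below the threshold. It had 46.7 CPM of Etv1, 40.6 of Foxa2 and 30.5 of Tmem45b from 161, 140 and 105 counts, but 0.580 CPM of Kit from 2 counts. Against barcode 44480 these counts came to 4.36% for Etv1, 3.85% for Foxa2 and 4.38% for Tmem45b, and also 3.49% for Tas1r1 and 2.44% for Tas1r2, but 0.0716% for Kit, 0.278% for Gna14 and 25.02% for Tas1r3. Whether RNA from 44480 contributed to 519708 was not tested. It was on for Tas1r2, at 64.1 CPM, and Tas1r3, at 187 CPM, and had 2836 CPM of Gnat3, 7 bitter receptor genes on and 827 CPM of type III markers. Apart from these 2 barcodes and the 2 lone calls, no CV barcode had more than 4.46 CPM of Etv1, 2.60 of Foxa2, 2.40 of Kit or 5.11 of Tmem45b.

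The lone CV calls came from barcodes dominated by mitochondrial RNA. Barcode 455364 had 206 CPM of Etv1 from 53 counts, with 920 genes, 94.8% mitochondrial counts and 353 CPM of Trpm5. Barcode 627807 had 1836 CPM of Foxa2 from 322 counts, with 640 genes, 98.1% mitochondrial counts, and Gnat3 and Trpm5 at 0. Neither had a Tas1r gene on. The part of mitochondrial share in these calls was not tested; among the 61 CV barcodes 27 had more than 50% mitochondrial counts.

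**Figure D4:**
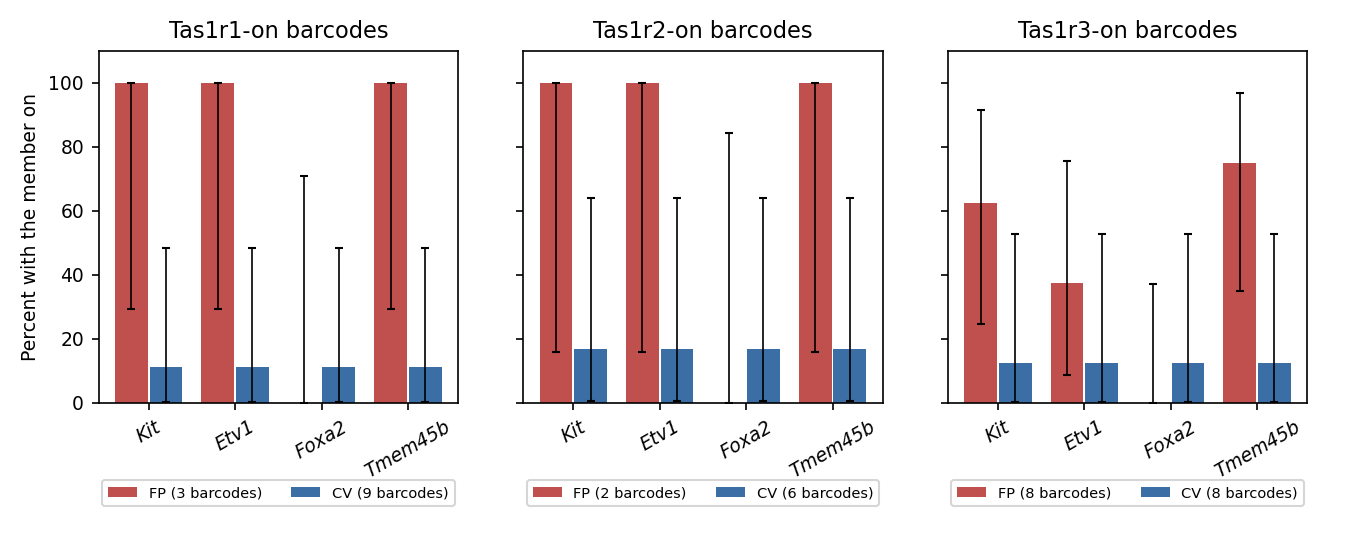
Percent of Tas1r1-on, Tas1r2-on and Tas1r3-on barcodes with each member on, FP bars left of CV bars, with exact binomial 95% intervals from counting error. Kit, Etv1 and Tmem45b were on in all 3 Tas1r1-on FP barcodes, while every CV bar stands for the single barcode 44480.

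Members differed in how they went with one another. In FP, Etv1-on barcodes were all Kit-on and Tmem45b-on (3 of 3, interval 29.2% to 100%), while 3 of 7 Kit-on and 3 of 13 Tmem45b-on barcodes were Etv1-on. Tmem45b was on in 4 of 7 Kit-on barcodes (57.1%, 18.4% to 90.1%) and in 9 of 22 Kit-off barcodes (40.9%). As a description over the 21 Gnat3-kept FP barcodes, Pearson's r on log2(CPM + 10) was 0.67 between Kit and Etv1, 0.38 between Etv1 and Tmem45b and -0.00190 between Kit and Tmem45b (0.19 over all 29 FP barcodes). Between members and receptors it was highest for Etv1 with Tas1r1, at 0.87, and lay at 0.66 for Kit with Tas1r1, 0.27 for Tmem45b with Tas1r1 and 0.35 for Tmem45b with Tas1r3. These barcodes share 1 library and differ in depth, and the 3 Tas1r1-on barcodes are high for both genes of the pairs of Kit, Etv1 and Tas1r1.

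Other readouts were set beside the on calls in FP. Bitter receptor genes were on in 0 of the 3 Etv1-on barcodes, against a median of 1.5 genes and up to 13 in the 18 Etv1-off Gnat3-kept barcodes, of which 5 had none. Kit-on barcodes had a median of 0 bitter receptor genes on (0 to 6, 7 barcodes) and Kit-off Gnat3-kept barcodes a median of 1.5 (0 to 13, 14 barcodes). Tmem45b-on barcodes had a median of 1 (0 to 4, 13 barcodes) and Tmem45b-off Gnat3-kept barcodes a median of 2 (0 to 13, 8 barcodes). All of these ranges overlapped. Gnat3 had a median of 2140 CPM (377 to 6157) in Kit-on barcodes and 5508 CPM (1125 to 8800) in Kit-off Gnat3-kept barcodes, and r between Kit and Gnat3 was -0.54 there, but 0.19 over all 29 FP barcodes, so its sign depended on the set. In Tmem45b-on and Tmem45b-off Gnat3-kept barcodes the Gnat3 medians were 5320 and 4986 CPM. Trpm5, the cation channel of type II cells, was at 1283 and 1157 CPM in the Etv1-on barcodes 540025 and 83863 but at 10.5 CPM in 63443, which had 3916 CPM of Plcb2. Tmem45b-on barcodes held a median of 1255078 counts and 6535 genes, and Tmem45b-off Gnat3-kept barcodes 560080 counts and 4989.5 genes; the part of depth in that comparison was not tested.

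**Figure D5:**
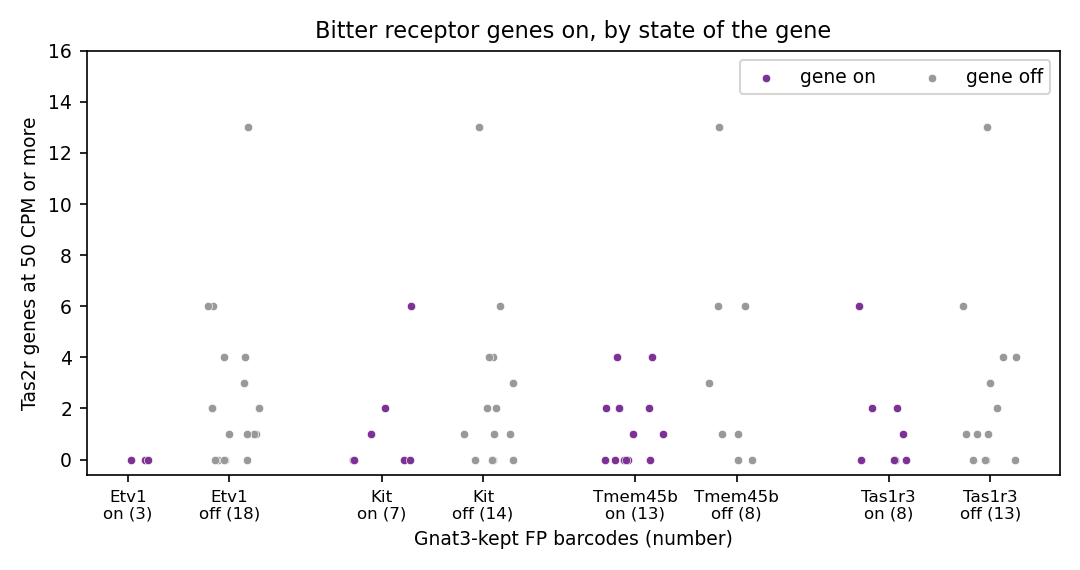
Number of Tas2r genes at 50 CPM or more in each Gnat3-kept FP barcode, split by whether Etv1, Kit, Tmem45b or Tas1r3 was on (left) or off (right), with the number of barcodes in brackets. The 3 Etv1-on barcodes are all at 0, and the ranges of on and off barcodes overlap for every gene.

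Markers of other cells were compared with the members. In FP, 7 barcodes had summed keratinocyte markers of 55058 CPM or more, against at most 529 CPM in the other 22 and 4849 CPM in CV. None of the 7 had a member on, which by the same limit of 3 allows a share of up to 42.9%. Kit reached 2.81 CPM, Tmem45b 1.91 CPM and Etv1 0.955 CPM there, although their median total of 1679950 counts exceeded the 1094590 of the other FP barcodes. Kit had at least 1 count in 4 of these 7 barcodes and in 19 of all 29, so single counts were read as background. None of 8 genes of mast cells, a lineage known for Kit, had a row in either table, so they could not be read. The melanocyte list reached 48.2 CPM in FP, in the Kit-on barcode 551304, and 138 CPM in CV, in 797649, where Kit was at 1.07 CPM; in the 3 Etv1-on FP barcodes it was at most 1.52 CPM. Type III markers were at most 6.502 CPM in Kit-on FP barcodes, against up to 479 CPM in Kit-off ones.

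The ligand and relatives of the members were mostly low. Kitl, encoding stem cell factor, had no row in FP and 28.2 CPM in CV, where it was on in 2 barcodes and 519708 held 81.6% of its counts; 44480 had none. Pdgfra, a class III receptor kinase like Kit, had a level of 4.94 CPM in FP, against 63.0 CPM in CV, from 1 FP and 5 CV barcodes that were on. Flt3 stayed at 1.35 and 1.22 CPM, and Csf1r had no row in FP and 0.213 CPM in CV. Etv5, the ETS factor closest to Etv1 together with Etv4, was on in 1 FP barcode, the Etv1-on 83863 at 113 CPM, and in 2 CV barcodes, 44480 at 64.3 and 519708 at 155 CPM. Etv4 had 0 counts in FP and no row in CV. Foxa1, the nearest relative of Foxa2, was on in 1 FP and 3 CV barcodes, none on for a member. Foxa3 had no row in FP and 4 counts in CV. Tmem45a was on in 2 FP barcodes, neither on for a member, and had no row in CV.

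Lists around the members were counted at a 2-fold difference on log2(CPM + 10), among genes with 10 CPM in either group. The ETS list holds Etv1 and the forkhead list holds Foxa2, both chosen on these data. Counts of these lists, here and below, include them where they reach 10 CPM and are descriptions only. Of 38 KIT signalling genes, 32 were compared between libraries, with 3 higher in FP (17% of all 10892 genes compared) and 6 lower (18.7%). Those higher included the adaptor Sh2b3, at 19.5 CPM in FP and 0 in CV, and the GTPase gene Hras, at 327 and 139 CPM. Those lower in FP included Akt1, at 46.96 CPM in FP and 129 in CV. Of 9 ERK feedback genes and targets compared, 2 were higher in FP, namely the phosphatase gene Dusp6, at 65.1 CPM in FP and 8.14 in CV, and Egr1, at 1360 and 460 CPM, and 3 were lower. Of 14 ETS factors, 2 were higher and 6 lower, with the chosen Etv1 among those lower. Spib, a factor of epithelial and immune lineages, was at 22.001 CPM in FP and 111 in CV, and Ehf, an epithelial factor, at 128 and 298 CPM. Of 16 forkhead factors 1 was higher, Foxk2 at 49.9 CPM in FP and 4.79 in CV, and 6 were lower. Among those lower were the chosen Foxa2, and Foxq1 at 1.21 and 60.7 CPM. The medians were -0.39 for KIT signalling, -0.23 for the ERK list, -0.49 for ETS and -0.47 for forkhead genes, against -0.03 over all genes. Over the 4 lists, with Etv5 in both the ERK and ETS lists and counted once, 8 genes were higher in FP and 20 lower. By mean CPM per barcode, which weights barcodes equally, 15 were higher and 10 lower, so the direction of the split depended on that scaling. The shares over all genes were not computed for mean CPM, so this turn cannot be read as particular to the lists. Without barcode 44480, where 18.5% of all genes were higher and 19% lower, 3 ETS factors were higher and 4 lower, with Etv1 then among those higher in FP.

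The same lists were set against Tas1r3 within each library, where Tas1r3-off FP barcodes include the 7 rich in keratinocyte markers. In FP, 26.1% of 10045 genes were at least 2-fold higher in Tas1r3-on barcodes and 24% lower, and 11 of 30 KIT signalling genes were higher and 4 lower. Within Gnat3-kept FP barcodes, with 25.1% higher and 24.7% lower, 9 were higher and 10 lower, so that excess did not hold there. Cbl, encoding a ubiquitin ligase that acts on KIT, was at 60.5 CPM in Tas1r3-on and 5.22 CPM in Tas1r3-off Gnat3-kept barcodes. Of 13 ETS factors 7 were higher and 5 lower in all FP barcodes, and 6 and 4 in Gnat3-kept ones. Among those higher was the chosen member Etv1, at 117 CPM in Tas1r3-on and 2.299 CPM in Tas1r3-off Gnat3-kept barcodes. Spib was at 66.9 and 0.354 CPM, and was on in 3 FP barcodes, all of them Tas1r3-on and Tmem45b-on and 2 of them Etv1-on. In Gnat3-kept CV barcodes Spib was lower in Tas1r3-on than in Tas1r3-off barcodes, at 46.4 and 125 CPM. Over all CV barcodes it was at 122 and 106 CPM, and 2 of its 10 on barcodes were Tas1r3-on. Cbl was at 44.5 and 40.5 CPM in Gnat3-kept CV barcodes, and Etv1 at 18.6 and 0.239 CPM, mostly from barcode 519708.

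In CV, with 24.9% higher and 21.7% lower of 10501 genes, 13 of 32 KIT signalling genes were higher in Tas1r3-on barcodes and 4 lower, and 7 of 13 ETS factors were higher and 1 lower. Without 44480 (25.8% and 25.3%), and likewise in Gnat3-kept barcodes (22.7% and 28.7%), those counts were 12 and 6 of 32, and 6 and 2 of 12. Of 9 ERK feedback genes and targets, 7 were higher and 2 lower in CV in all 3 of these sets, each of which holds the Tas1r3-on barcode 519708. That barcode held 60.1% of the CV counts of Dusp6, 66.7% of Etv5 and 46.5% of Egr1. Without it (23% and 26.9% of all genes), 3 of 9 ERK genes were higher and 2 lower, 5 and 6 of 29 KIT signalling genes, 5 and 1 of 13 ETS factors, and 3 and 5 of 16 forkhead factors. The higher counts of the KIT and ERK lists in Tas1r3-on CV barcodes thus rested on 519708. In FP the ERK counts were 3 higher and 2 lower of 12 in all barcodes and 5 and 2 of 11 in Gnat3-kept ones. Forkhead counts were 1 higher and 5 lower of 11 in FP (2 and 5 of 10 in Gnat3-kept barcodes), and 5 and 6 of 16 in CV (4 and 7 in Gnat3-kept barcodes, 3 and 7 without 44480). In CV, Foxa2 was at 297 CPM in Tas1r3-on and 13.2 CPM in Tas1r3-off barcodes through barcode 44480. Each of these counts rests on 8 Tas1r3-on barcodes or fewer.

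The genes most like each member were ranked over the 85 barcodes with more than 500 genes, among 7010 genes on in at least 5 of them, by the share of barcodes on for both out of those on for either. For Kit, on in 8, it was led by Lfng, encoding a glycosyltransferase that modifies Notch receptors, on with Kit in 6 barcodes (0.6), followed by Slc44a3 (0.5), Etv1, Zfp182 and Lyplal1 (0.444 each). Kit was on in 7 FP barcodes and 1 CV barcode, so part of this ranking can lie in the difference between libraries. Zfp182 was at 30.2 CPM in FP and 0.399 in CV. Etv1 was at 38.9 CPM in FP and 104 in CV, but at 6.54 in CV without barcode 44480. By on calls, which this ranking uses, Etv1 was also more frequent in FP (10.3% of barcodes) than in CV (3.28%). Lfng was on in 5 of 7 Kit-on and 1 of 22 Kit-off FP barcodes, with medians of 86.2 and 0.672 CPM. The Kit-off barcodes include the 7 rich in keratinocyte markers, whereas all 7 Kit-on FP barcodes were Gnat3-kept. The part of that difference was not tested. For Etv1, on in 5, the nearest were Ahdc1 and Slc44a3 (0.5 each, on together in 4), followed by Dnajb9, Kit and Lfng (0.444). Lfng, Slc44a3 and Ahdc1 were on in all 3 Etv1-on FP barcodes and in CV barcode 44480, where they had 109, 104 and 185 CPM. Foxa2 was on in 2 barcodes, too few for a ranking to say much; Mplkip, on in both, led it (0.222), followed by Gna14 (0.167).

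For Tmem45b, on in 14 of the 85 barcodes, the 5 nearest genes included the hyaluronan receptor gene Cd44 (on with it in 13, 0.591), Immt (11, 0.55), Fgf14 (10, 0.526) and Cd59a (7, 0.5). Tmem45b was on in 13 FP barcodes and 1 CV barcode, and each of these genes was also higher in FP. Cd44 was at 532 CPM in FP and 103 in CV, Immt at 142 and 22.4, and Fgf14 at 247 and 11.5. Cd59a had 68.4 CPM in FP and 0 counts in CV. Part of each likeness can therefore lie in the difference between libraries, and the size of that part was not tested. Within FP, Cd59a, which encodes an inhibitor of complement, was on in 7 of 13 Tmem45b-on barcodes and in 0 of 16 Tmem45b-off ones, where it reached 17.1 CPM. The Tmem45b-off barcodes include the 7 rich in keratinocyte markers, whereas all 13 Tmem45b-on FP barcodes were Gnat3-kept. Across the 29 FP barcodes, which differ in depth and include those rich in keratinocyte markers, r with Tmem45b on log2(CPM + 10) was 0.74 for Cd59a.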

How the data were processed

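Each table, as deposited by the authors, gives an unnormalized count for every listed gene in every barcode. Per the submitters' processing notes, the build was mm10 and the tools were Seurat (2.3.4), Bowtie2 (2.3.4.1) and cutadapt (2.10). The series design names DropletUtils for quality control and a distribution-based correction of sequencing errors. All 29 FP and 61 CV barcodes were used, grouped by the tissue label. CPM was each gene's count over all counts of its barcode, or over all barcodes of a library; a gene with no row in 1 table was taken as 0 there. The authors' limit of 0.9 on Gnat3 has an unclear log base and was read as ln(1 + counts per 10000). Gene positions came from GENCODE M21. The members and all lists were chosen with earlier results of these data known. Genes were named by relationship to the members, list membership at 50 CPM with the largest library ratios, or likeness (5 per member); Sh2b3, Foxk2 and Cbl in the list counts were chosen after their values were seen, and some genes that these rules name are not reported here. Intervals were exact Poisson and Clopper-Pearson. Python 3.11.15, pandas 2.3.3 and scipy 1.17.1 were used. The code for the 2-fold counts was run on simulated library totals with planted changes and no variation between barcodes. The likeness ranking was run on the real barcodes with a planted near-copy of a gene. Both runs check the code only and say nothing of results that rest on single barcodes. Barcode 44480, barcode 519708 and the run of adjoining barcodes were each left out in alternatives chosen after seeing the data.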

Additional observations from a re-analysis of the deposited data

How the results depend on the processing

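Of 336 recomputed values, 261 stayed within the interval of the reported value (for counts, within 1.5 times), 70 moved past it and 5 turned direction. With a gene called on at 1 count, shares moved to 65.5% (Kit), 41.4% (Etv1), 69.0% (Tmem45b), 89.7% (any member) and 51.7% (2 or more members) in FP and to 11.5% (Kit and Foxa2), 13.1% (Etv1, and 2 or more members), 19.7% (Tmem45b) and 34.4% (any member) in CV. Members were then on in 100% of Tas1r3-on FP barcodes, and in 61.1%, 66.7% and 71.4% of Tas1r1-on, Tas1r2-on and Tas1r3-on CV barcodes. In Gnat3-kept barcodes the share with any member on was 76.2% in FP, and all 9 CV shares were 0%. Without barcode 44480 the CV shares of Kit, of Tmem45b, of 2 or more members and of a member in barcodes on for each Tas1r gene were 0%. On rules of 10, 100 or 50 CPM with 3 counts, barcodes with 1000 genes or more, and the other settings kept every share within its interval.

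Log2 ratios of FP over CV depended on which barcodes carried the counts. In Gnat3-kept barcodes they were 4.02 (Kit), 2.15 (Etv1) and 4.77 (Tmem45b), without barcode 44480 3.45, 1.56 and 4.22, without the highest barcode of each library 3.02, 0.78 and 3.92, as mean CPM per barcode 2.45, 0.80 and 3.73, and thinned to 52536 counts per barcode (9 CV barcodes left out) 2.29, 0.59 and 3.41. Etv1 turned to higher in FP in all 5 of these. Without mitochondrial and ribosomal RNA they were 0.28, -1.40 and 1.59. A pseudocount of 1 CPM gave -1.40 (Etv1) and 1.85 (Tmem45b), and leaving out barcode 519708 gave 0.30 (Kit). The CV level of Foxa2 was 5.01 CPM in Gnat3-kept barcodes, 14.04 without barcode 44480, 45.4 as mean CPM per barcode, 54.2 thinned, 101 without its highest barcode, 114 without the adjoining barcodes, 116 without 519708 and 141 without mitochondrial and ribosomal RNA. The cause was not tested.

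Over the KIT signalling, ERK, ETS and forkhead lists together, 8 genes were higher and 20 lower in FP; thinned counts and mean CPM both gave 15 higher and 10 lower, so the split between higher and lower turned round. Genes lower in Tas1r3-on CV barcodes numbered 13, but 5 after thinning and 8 by mean CPM, and those higher numbered 31, but 15 without barcode 519708. The shares over all genes were not computed for thinned counts or mean CPM, so changes under these settings cannot be read as particular to the lists. Of 5 like genes per member, 3 stayed in the list by Pearson's r for each member, 2 (Kit) and 3 (Etv1) in Gnat3-kept barcodes, and 3 (Kit) and 1 (Foxa2) without barcode 44480. Foxa2 could not be ranked in Gnat3-kept barcodes, where it was never on. No paired analysis was possible because there was 1 library per papilla and the labels give no shared replicate numbers. In the shallowest CV barcode 50 CPM took 2 counts, so calls there rest on few counts.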
